A study of Homo sapiens with 27 samples.

Results

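Transcript levels of 9 tight junction genes other than claudins were followed in SUM159 and MDA-MB-231 cells (human, triple negative breast cancer), which the study treats as mesenchymal and claudin-low. The 9 genes were chosen by their symbols, as membrane and scaffold proteins of the tight junction, and are OCLN, MARVELD2, MARVELD3, LSR, ILDR1, F11R, CGN, TJP1 and TJP3. All 9 were found by their Ensembl identifiers among the 57165 genes of the table. The study asked what follows when ZEB1, a repressor of epithelial genes, is silenced by dCas9-KRAB, a catalytically dead Cas9 that carries a KRAB repressor domain and is led to the ZEB1 promoter by guide RNAs (gRNAs).

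RNA was sequenced from 9 groups of 3 libraries. In SUM159, run 1 held untransduced wild type cells, cells with the dCas9-KRAB vector and no targeting gRNA (No gRNA), cells with the vector and gRNA 4, and cells with the vector and a pool of all 4 gRNAs (All gRNA). SUM159 wild type cells were sequenced again in run 2. In MDA-MB-231, run 2 held wild type, No gRNA and 2 targeted groups, for which the sample titles and the column headings give opposite conditions. They are called set 1 (gRNA 4 by title, all gRNAs by heading) and set 2 (all gRNAs by title, gRNA 4 by heading), and nothing here rests on which of them carried the single gRNA. All transduced groups were selected with puromycin, and the vector itself is carried by No gRNA and by the targeted groups alike. The labels call the replicates biological and the study's methods call them individual clones, and p-values measure only the spread among these 3 libraries per group. Apart from the SUM159 wild type, line and run coincide, so that for transduced cells a difference between lines and a difference between runs cannot be told apart. Library totals ran from 15461200 to 21473757 estimated counts.

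Tight junctions seal the space between neighbouring epithelial cells near their apical side. Occludin (OCLN), tricellulin (MARVELD2) and MARVELD3 are the MARVEL-domain proteins that span the membrane. The angulins LSR and ILDR1 mark the points where 3 cells meet and bring tricellulin there, and F11R (JAM-A) is an immunoglobulin-like adhesion molecule. On the inner side, the scaffolds TJP1 (ZO-1) and TJP3 (ZO-3) link the membrane proteins to actin and to cingulin (CGN). ZEB1 is known to repress epithelial junction genes by binding E-box motifs.

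The identity of the lines was checked with markers. Vimentin (VIM) lay between 1743 and 1799 CPM (counts relative to library size, with library totals scaled by TMM over all 27 libraries) in SUM159 wild type of run 2 and between 2446 and 2510 CPM in MDA-MB-231 wild type. CD44 averaged 256 and 1284 CPM in these groups. The hormone receptor genes ESR1 and PGR stayed at or under 0.185 and 0.959 CPM in every library. CDH1 averaged 0.0767 CPM in SUM159 and 0.0810 CPM in MDA-MB-231 wild type of run 2. Of the claudins, CLDN3 was listed at 0 in all SUM159 libraries, and CLDN4 and CLDN7 averaged 0.742 and 0.0656 CPM in SUM159 wild type of run 2, whereas CLDN1 averaged 106 CPM there. In MDA-MB-231 wild type, CLDN4 averaged 65.9, CLDN1 28.7, CLDN7 17.5 and CLDN3 0.808 CPM, and EPCAM 12.2 CPM. ERBB2 averaged 62.3 and 45.0 CPM in the same groups. The leukocyte marker PTPRC did not exceed 0.294 CPM in any library.

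The target responded as labelled. In SUM159, ZEB1 stood at 70.4, 77.3 and 73.3 CPM in No gRNA, at 4.54, 3.25 and 2.56 CPM with gRNA 4, and at 0.806, 0.374 and 1.02 CPM with All gRNA. ZEB1 of MDA-MB-231 cells was 105, 122 and 104 CPM without gRNA, 4.77, 5.54 and 5.78 CPM in set 1, and 4.98, 3.75 and 5.48 CPM in set 2. No targeted library overlapped a No gRNA library of its line.

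The 9 genes differed widely in abundance, and their order changed with targeting in both lines. Per kilobase of the canonical transcript, TJP1 was the highest in SUM159 No gRNA, at 7.52 CPM per kb, followed by LSR at 3.24, F11R at 1.03 and OCLN at 0.844 CPM per kb. F11R and OCLN did not differ there by more than their combined SDs. With All gRNA, LSR led at 29.1 CPM per kb, ahead of F11R at 6.99 and TJP1 at 6.73 CPM per kb, and these last genes did not differ beyond their spread. In MDA-MB-231 No gRNA the order was LSR at 29.4, F11R at 13.7, TJP1 at 7.60 and OCLN at 3.82 CPM per kb. In set 1, F11R led at 86.3 CPM per kb, ahead of LSR at 56.7, with TJP1 and OCLN level at 11.8 CPM per kb each. In set 2, LSR led at 87.2 CPM per kb, ahead of F11R at 66.3 CPM per kb, and with the exon union as length this pair changed places. ILDR1 never passed 0.108 CPM per kb in the mean of a group.

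**Figure D1:**
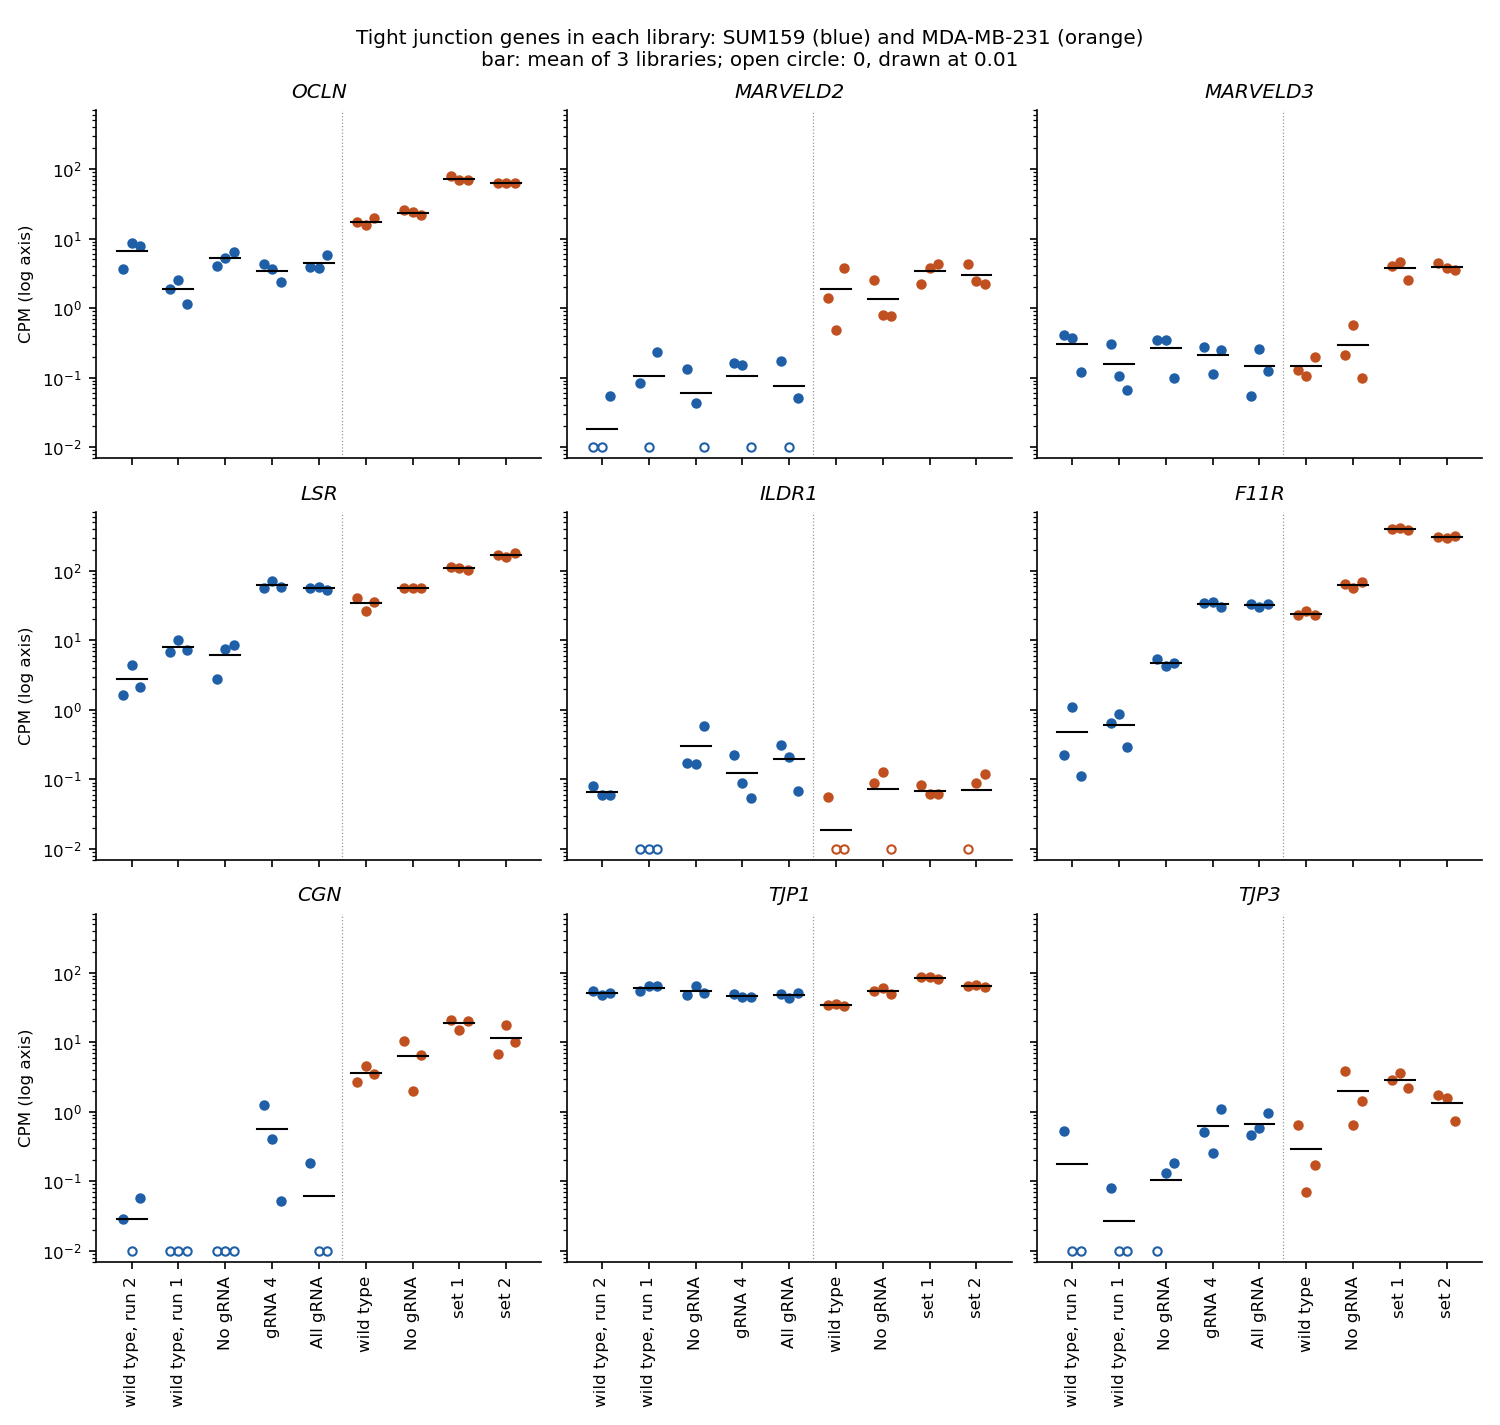
CPM (log axis) of the 9 genes in each of 27 libraries, by group, with SUM159 in blue, MDA-MB-231 in orange, a bar at the mean of 3 libraries and open circles for libraries at 0, drawn at 0.01. F11R and LSR lie higher in all targeted libraries than in any No gRNA library of their line. OCLN and, narrowly, TJP1 do so in MDA-MB-231, and TJP1 lies between 32.7 and 87.9 CPM in all libraries. MARVELD3 in MDA-MB-231 and TJP3 in SUM159 also do so, at very low counts in No gRNA, and nothing is drawn from them. The share of all genes without overlap is not given, so that nothing is drawn from how many members do so.

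ZEB1-type E-boxes were looked for in RefSeq promoter windows (GRCh38.p14, 250 bases before to 50 bases after a start site). The motifs searched were CAGGTG and CAGGTA, on either strand. Either occurred in 28.1% of 35116 promoter windows. Of the 9 genes, 7 had windows (all but F11R and MARVELD3), 12 in all, and 5 windows of 4 genes (OCLN, ILDR1, TJP1 and TJP3) held a match. The single windows of LSR, CGN and MARVELD2 held none, which says only that these letters are not there. The matches before the start sites of OCLN, TJP1 and TJP3 are shown 5′ to 3′ on the strand of the gene, with the motif in capitals.
OCLN, first start, chr5:69492502-69492531 (+): ccatccgagtttCAGGTGaattggtcaccg
OCLN, second start, chr5:69492645-69492674 (+): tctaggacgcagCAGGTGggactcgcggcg
TJP1, first of 4 starts, chr15:29969120-29969149 (-): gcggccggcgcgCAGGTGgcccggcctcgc
TJP3, second of 2 starts, chr19:3721718-3721736 (+): gaggaagaggggCAGGTGc
The first OCLN motif shown lay 33 bases before the first start and the other 133 before the second start, that of TJP1 88 before and that of TJP3 7 before the start named. A further OCLN match began at position 36, counted from 1 at the second start. A match of 6 letters is a description and no evidence of binding. ILDR1, with 3 matches in its window, and OCLN, with 3 in its windows, had the most of the 7 genes.

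In SUM159, silencing of ZEB1 was accompanied by a large rise of one adhesion protein and one angulin. With All gRNA and gRNA 4, F11R rose 6.77-fold and 6.94-fold, and LSR rose 9.98-fold and 11.0-fold. OCLN and TJP1 did not pass any test, MARVELD2, MARVELD3, ILDR1 and CGN had too few counts to be tested, and TJP3 lay higher at very low counts. A gene was called where limma's TREAT test found an absolute log2 fold change over 1 at an adjusted p under 0.05, with limma's moderated test against a change of 0 given beside it. By TREAT, 2 of the 5 genes tested were called in each condition, both higher, against 0.396% of all 15147 genes with All gRNA and 0.390% with gRNA 4 (both directions together). The moderated test called the same genes, F11R and LSR, against a background of 10.8% and 11.0%.

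F11R (ENSG00000158769, chromosome 1, 160995211 to 161021343, minus strand) stood at 5.40, 4.31 and 4.67 CPM in SUM159 No gRNA. It stood at 33.0, 30.6 and 33.6 CPM with All gRNA and at 34.7, 36.2 and 29.8 CPM with gRNA 4. Every targeted library was above every No gRNA library. The log2 fold change was 2.76 (SE 0.165, TREAT adjusted p = 0.000135) with All gRNA and 2.79 (SE 0.165, adjusted p = 0.000119) with gRNA 4. F11R shares 1853 exonic bases with a read-through gene on the same strand, ENSG00000270149, which averaged 0 CPM in these 3 groups.

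LSR (ENSG00000105699, chromosome 19, 35248330 to 35267964, plus strand) stood at 2.80, 7.46 and 8.52 CPM in No gRNA. With All gRNA it stood at 56.1, 59.4 and 53.4 CPM, and with gRNA 4 at 57.2, 72.5 and 58.7 CPM. The groups did not overlap, and the spread in No gRNA came from 1 low library. The log2 fold change was 3.32 (SE 0.285, TREAT adjusted p = 0.00152) with All gRNA and 3.46 (SE 0.284, adjusted p = 0.000658) with gRNA 4.

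OCLN (ENSG00000197822, chromosome 5, 69492292 to 69558104, plus strand) stood at 4.02, 5.20 and 6.43 CPM in No gRNA, at 3.95, 3.78 and 5.76 CPM with All gRNA, and at 4.30, 3.63 and 2.37 CPM with gRNA 4. The groups overlapped. The log2 fold changes were -0.21 (95% interval -0.80 to 0.39) and -0.62 (interval -1.26 to 0.01), with adjusted p of 0.696 and 0.209 in limma's moderated test. These intervals lie below the changes of OCLN in MDA-MB-231 given further on.

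TJP1 (ENSG00000104067, chromosome 15, 29699367 to 29968915, minus strand), the scaffold with the highest level, stood between 47.4 and 64.1 CPM in No gRNA, between 43.9 and 51.8 CPM with All gRNA and between 44.8 and 50.0 CPM with gRNA 4. Its log2 fold changes were -0.14 (95% interval -0.39 to 0.11) and -0.20 (interval -0.46 to 0.05), so that changes of the size seen for F11R lie far outside.

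TJP3 (ENSG00000105289, chromosome 19, 3708362 to 3750813, plus strand) stood at 0, 0.131 and 0.181 CPM in No gRNA, at 0.463, 0.585 and 0.973 CPM with All gRNA, and at 0.515, 0.258 and 1.09 CPM with gRNA 4. All targeted libraries were above all No gRNA libraries, at no more than 19 counts in any of them. Changes of 2.78 (SE 0.817) and 2.50 (SE 0.833) on the log2 scale missed the threshold, with adjusted p of 0.0504 and 0.0805 in limma's moderated test. TJP3 passed the filter on low counts only through targeted libraries, and without No gRNA replicate 1, which was at 0, the changes were 1.88 and 1.60. CGN (ENSG00000143375, chromosome 1, 151510510 to 151538692, plus strand) was listed at 0 in all 3 No gRNA libraries and at 22, 7 and 1 counts with gRNA 4, where the mean rests on 1 library. Among the All gRNA libraries it had 3 counts in 1 and 0 in the others. MARVELD2, MARVELD3 and ILDR1 did not exceed 0.175, 0.352 and 0.583 CPM in the No gRNA and targeted libraries of SUM159, and a change in them was not detectable at this depth.

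With both gRNA conditions as one group of 6 libraries against 3, F11R, LSR and TJP3 did not overlap No gRNA, each with p = 0.0238 in a two-sided exact permutation test on log2 CPM, the smallest p this design allows. The share of all genes without overlap is not given here, so that nothing is drawn from how many members did not overlap. TREAT called F11R (log2 fold change 2.78) and LSR (3.39) of the 5 genes tested, against 0.462% of all genes, and the moderated test called these, against 13.8%. It also called TJP3 (2.64, and 1.74 without No gRNA replicate 1), from which nothing is drawn, since only targeted libraries brought TJP3 past the filter. Neither test called any of the 5 members tested between All gRNA and gRNA 4, and the other 4 had too few counts for it. Against gRNA 4, TREAT called 0 of 15147 genes (0.00%) with All gRNA, where 32 had an unadjusted p under 0.05. The moderated test called 143 genes (0.944%), none of them a member. The differences were -0.04 for F11R (95% interval -0.27 to 0.20) and -0.14 for LSR (interval -0.51 to 0.23) on the log2 scale, while ZEB1 itself was lower by 2.25 on the log2 scale with All gRNA (adjusted p = 0.0165 in limma's moderated test). The endothelial marker PECAM1 averaged 2.67 CPM in SUM159 No gRNA, 6.53 with All gRNA and 6.06 with gRNA 4, and its part in these results was not tested. In bulk RNA, fewer cells with a transcript and less of it per cell cannot be told apart.

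In MDA-MB-231, 8 of the 9 genes had enough counts to be tested. F11R and OCLN rose in both targeted sets and LSR in set 2 by TREAT, while LSR in set 1, TJP1 in both sets and CGN in set 1 rose by the moderated test alone. MARVELD2 and TJP3 passed neither test. MARVELD3 passed the filter on low counts only through the targeted sets, where it is high, so that its calls, made by both tests in both sets, are left out of the counts and nothing is drawn from them. Of the other 7 genes, TREAT called 2 in set 1 (1.47% of all 15721 genes) and 3 in set 2 (4.14%), all higher. The moderated test called 5 of these 7 in set 1 and 4 in set 2, all higher, where it called 37.8% and 52.4% of all genes in either direction.

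F11R stood at 65.4, 56.7 and 68.9 CPM in No gRNA, at 397, 412 and 392 CPM in set 1 and at 308, 301 and 314 CPM in set 2. The groups were far apart, and set 1 lay above set 2 in every library. F11R rose by 2.65 on the log2 scale (SE 0.0588, TREAT adjusted p = 1.62e-08) in set 1 and 2.28 (SE 0.0600, adjusted p = 6.86e-08) in set 2, or 6.29-fold and 4.87-fold. The read-through gene that shares exons with F11R averaged 0.308 CPM in set 1 and 0 in the other transduced groups.

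OCLN stood at 25.5, 23.8 and 21.5 CPM in No gRNA, at 78.1, 70.3 and 69.9 CPM in set 1 and at 62.0, 62.9 and 63.5 CPM in set 2. No targeted library reached down to the No gRNA libraries. OCLN rose by 1.62 on the log2 scale (SE 0.0844, TREAT adjusted p = 0.000856) in set 1 and 1.42 (SE 0.0857, adjusted p = 0.0083) in set 2. The set 2 call was lost without No gRNA replicate 3 (adjusted p = 0.0502) and in a fit of all 27 libraries (0.0848). The OCLN pseudogene OCLNP1 was listed at 0 in all MDA-MB-231 libraries.

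MARVELD3 (ENSG00000140832, chromosome 16, 71626161 to 71642114, plus strand) stood at 0.213, 0.577 and 0.0984 CPM in No gRNA, at 3.98, 4.64 and 2.53 CPM in set 1 and at 4.42, 3.72 and 3.53 CPM in set 2. It went from at most 11 counts to at least 39 counts per library. All targeted libraries were above all No gRNA libraries. The fitted log2 fold changes were 3.79 (SE 0.512) in set 1 and 3.89 (SE 0.510) in set 2, and 4.38 and 4.51 without No gRNA replicate 2. MARVELD3 shares 1068 exonic bases with PHLPP2 on the opposite strand, and reads of the shared stretch could not be assigned by strand here. The PHLPP2 mean was 13.1 CPM in No gRNA, 20.4 CPM in set 1 and 19.0 CPM in set 2, and its part in the result was not tested.

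MARVELD2 (ENSG00000152939, chromosome 5, 69415065 to 69444330, plus strand), the tricellulin gene, stood at 2.53, 0.796 and 0.766 CPM in No gRNA, at 2.23, 3.77 and 4.37 CPM in set 1 and at 4.31, 2.42 and 2.25 CPM in set 2. The groups overlapped through 1 No gRNA library. The log2 fold changes were 1.50 (95% interval 0.10 to 2.90) and 1.31 (interval -0.11 to 2.73), with adjusted p of 0.0866 and 0.111 in limma's moderated test.

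Of the angulins, LSR stood at 57.2, 56.1 and 57.0 CPM in No gRNA, at 114, 111 and 104 CPM in set 1 and at 169, 158 and 179 CPM in set 2. The 3 groups were ordered without overlap, and set 2 was the highest. LSR rose by 1.57 on the log2 scale (SE 0.0949, TREAT adjusted p = 0.00211) in set 2. In set 1 it was 0.95 (SE 0.101), under the TREAT limit of 1, with an adjusted p of 2.45e-05 in limma's moderated test. ILDR1 (ENSG00000145103, chromosome 3, 121987323 to 122022247, minus strand) had at most 2 counts in any MDA-MB-231 library and was not tested, so that LSR was the only angulin of the pair that could be followed.

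Among the scaffolds, TJP1 stood at 54.7, 60.4 and 48.8 CPM in No gRNA, at 85.8, 87.9 and 81.0 CPM in set 1 and at 64.5, 66.5 and 61.9 CPM in set 2. The groups did not overlap, with 61.9 CPM in set 2 just above 60.4 CPM in No gRNA. The log2 fold changes were 0.64 (SE 0.0724) and 0.25 (SE 0.0756), with adjusted p of 3.95e-05 and 0.0164 in limma's moderated test, the smallest of the changes that passed it. CGN stood at 10.3, 1.96 and 6.60 CPM in No gRNA, at 21.0, 15.0 and 20.1 CPM in set 1 and at 6.73, 17.5 and 10.1 CPM in set 2, where it overlapped No gRNA. Its log2 fold change was 1.85 (SE 0.472, adjusted p = 0.00953 in limma's moderated test) in set 1 and 1.06 (SE 0.504, adjusted p = 0.0981) in set 2. Without No gRNA replicate 2, the lowest, these changes were 1.15 and 0.39. TJP3 stood at 3.88, 0.638 and 1.42 CPM in No gRNA and overlapped both sets, with log2 fold changes of 0.88 (95% interval -0.28 to 2.04) and -0.23 (interval -1.59 to 1.12). Without No gRNA replicate 1 these were 1.54 and 0.43, and without replicate 2 they were 0.26 and -0.83.

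**Figure D2:**
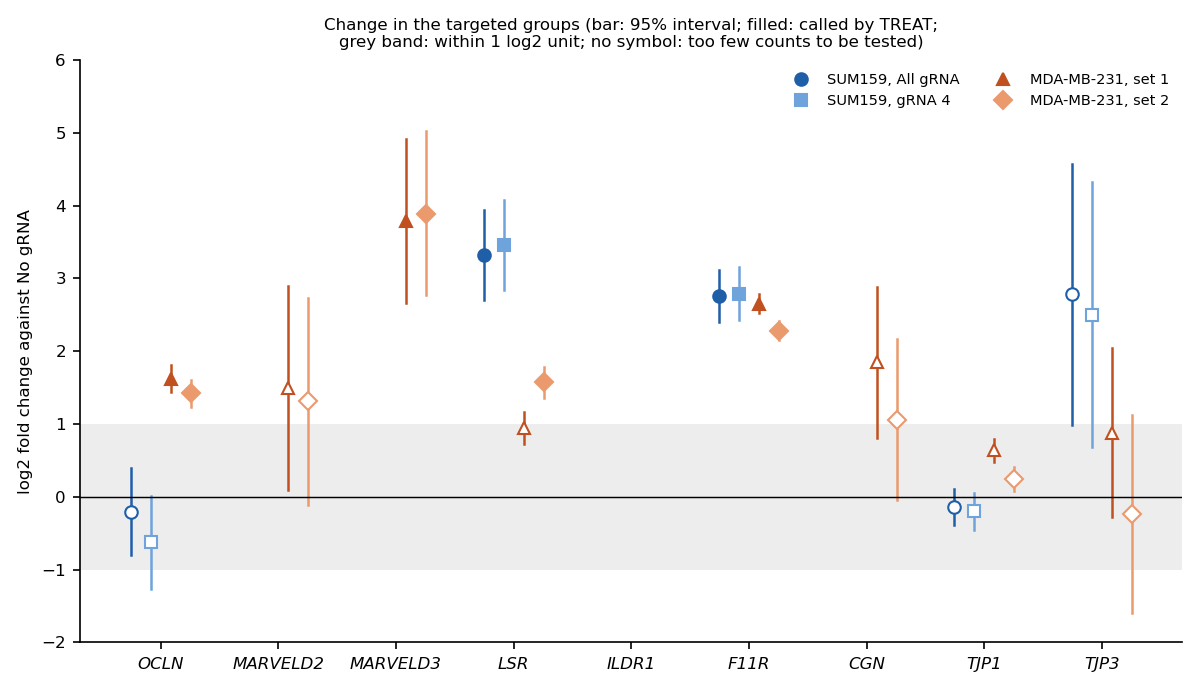
Log2 fold change against No gRNA for the 9 genes in the 4 targeted groups, with 95% intervals, filled symbols where TREAT called the gene, a grey band within 1 log2 unit of 0 and no symbol where counts were too low. F11R is filled in all 4 groups, OCLN in both MDA-MB-231 sets, and LSR in 3 groups with its larger changes in SUM159. The OCLN call in set 2 was lost without No gRNA replicate 3. MARVELD3 is also filled in both MDA-MB-231 sets, but passed the filter on low counts only through these sets, and nothing is drawn from it.

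With both sets as one group of 6 libraries, OCLN, LSR, F11R and TJP1 did not overlap No gRNA (p = 0.0238 each in the exact permutation test). MARVELD3 did not overlap either, at the same p, and nothing is drawn from it. MARVELD2, CGN, TJP3 and ILDR1 had exact permutation p of 0.0952, 0.0714, 0.619 and 0.976. These are 9 of 18 such tests over both lines, and 8 reached the smallest p, MARVELD3 here and TJP3 in SUM159 among them. The share of all genes without overlap is not given, so that nothing is drawn from this number. TREAT called F11R and OCLN of the 7 genes tested other than MARVELD3, against 1.77% of all genes, and the moderated test called these and LSR, TJP1 and CGN, against 44.6%. LSR, at a log2 fold change of 1.26, had a TREAT adjusted p of 0.252. The share of counts from mitochondrial genes was 1.97% to 2.43% in No gRNA, 1.48% to 1.69% in set 1 and 1.40% to 1.56% in set 2, and its part in the MDA-MB-231 results was not tested. In SUM159 this share was 3.29% to 4.10% in No gRNA and 3.57% to 4.39% in the targeted libraries.

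The sets also differed from each other. LSR was higher in set 2 by 0.63 (SE 0.0838) on the log2 scale, whereas F11R (-0.37, SE 0.0412), TJP1 (-0.39, SE 0.0712) and OCLN (-0.20, SE 0.0697) were lower. These 4 of 8 genes passed limma's moderated test, which called 51.5% of all genes, and none of the 8 passed TREAT, which called 3.07%. The share of members called is thus near the background of this comparison. ZEB1 differed by -0.18 between the sets (adjusted p = 0.528 in limma's moderated test).

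The response to targeting differed between the lines for OCLN and LSR. The difference was tested in one fit of 24 libraries, as the change in MDA-MB-231 minus the change in SUM159, which called 0.954% of 17182 genes by TREAT. OCLN changed by 1.91 log2 units more in MDA-MB-231 (SE 0.235, TREAT adjusted p = 0.0496). LSR changed less in MDA-MB-231, with a difference of -2.15 (SE 0.279, adjusted p = 0.0309). Its No gRNA level was 6.26 CPM in SUM159 and 56.8 CPM in MDA-MB-231. F11R, by contrast, differed by -0.33 (95% interval -0.68 to 0.02, adjusted p = 0.164 in limma's moderated test), with changes between 2.28 and 2.79 in all 4 comparisons. TJP1 differed by 0.59 (SE 0.120, adjusted p = 0.00092) in the moderated test alone, which called 25.4% of all genes. The LSR call was lost without any 1 of the 3 MDA-MB-231 No gRNA libraries and without SUM159 No gRNA replicate 1, where the difference was -1.65. The OCLN call was lost in 15 of 18 cases of 1 library left out, with adjusted p up to 0.375. MARVELD3 had too few counts in SUM159 for a change to be measured there, and nothing is drawn from its difference between the lines, although it passed TREAT in this fit.

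Levels of F11R already stood higher in No gRNA than in wild type in both lines, although the SUM159 test of this cannot be used. No gRNA cells differ from wild type by transduction, the dCas9-KRAB vector and puromycin selection at once, and these cannot be told apart. A step with the vector stands below for all of them together. In SUM159, F11R stood at 0.639, 0.877 and 0.289 CPM in wild type of run 1 and at 5.40, 4.31 and 4.67 CPM in No gRNA, without overlap. The log2 fold change was 3.05 (SE 0.340, TREAT adjusted p = 0.0048), beside 2.78 for the further step with gRNAs. F11R had 13.5, 18.2 and 5.69 counts in these wild type libraries. It passed the filter on low counts only through the transduced groups, where it is high, so that nothing is drawn from this call. In MDA-MB-231, F11R stood at 23.0, 26.3 and 23.3 CPM in wild type and at 65.4, 56.7 and 68.9 CPM in No gRNA, again without overlap. The log2 fold change was 1.33 (SE 0.0903, TREAT adjusted p = 0.0481), a TREAT call that was lost when any 1 library other than No gRNA replicate 2 was left out, with changes between 1.28 and 1.42. F11R was the only member called by TREAT, where 1.53% of all genes were called in SUM159 and 3.60% in MDA-MB-231. Its SUM159 call is not set against that share, for the reason given above.

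Some other members passed the moderated test alone with the vector. OCLN was 1.90, 2.53 and 1.15 CPM in SUM159 wild type of run 1, below all 3 No gRNA libraries, a log2 fold change of 1.50 (SE 0.325, adjusted p = 0.003 in limma's moderated test). That test called 42.9% of all genes in SUM159, and F11R, which also passed it there, is left out because of the filter. In MDA-MB-231, where it called 53.8%, F11R, TJP1 (0.62), LSR (0.69) and OCLN (0.37) passed. TJP3 (2.67) passed too, but came past the filter on low counts only through the transduced groups, so that nothing is drawn from it. Its change ran from 2.02 without No gRNA replicate 1 to 3.40 without wild type replicate 1. With backgrounds this high, nothing is drawn from the number of members called. TJP1 stood at 34.5, 34.9 and 32.7 CPM in MDA-MB-231 wild type, below all No gRNA libraries of that line, so that its step with the vector (0.62, 95% interval 0.43 to 0.80) stands beside one of 0.44 (interval 0.30 to 0.59) for both targeted sets against No gRNA. TJP3 had at most 11 counts in a wild type library of MDA-MB-231 and 68, 12 and 26 counts in No gRNA. ZEB1 was also higher in MDA-MB-231 No gRNA than in wild type, by 0.60 on the log2 scale (SE 0.0776, adjusted p = 5.16e-05 in limma's moderated test), and was -0.12 in SUM159.

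**Figure D3:**
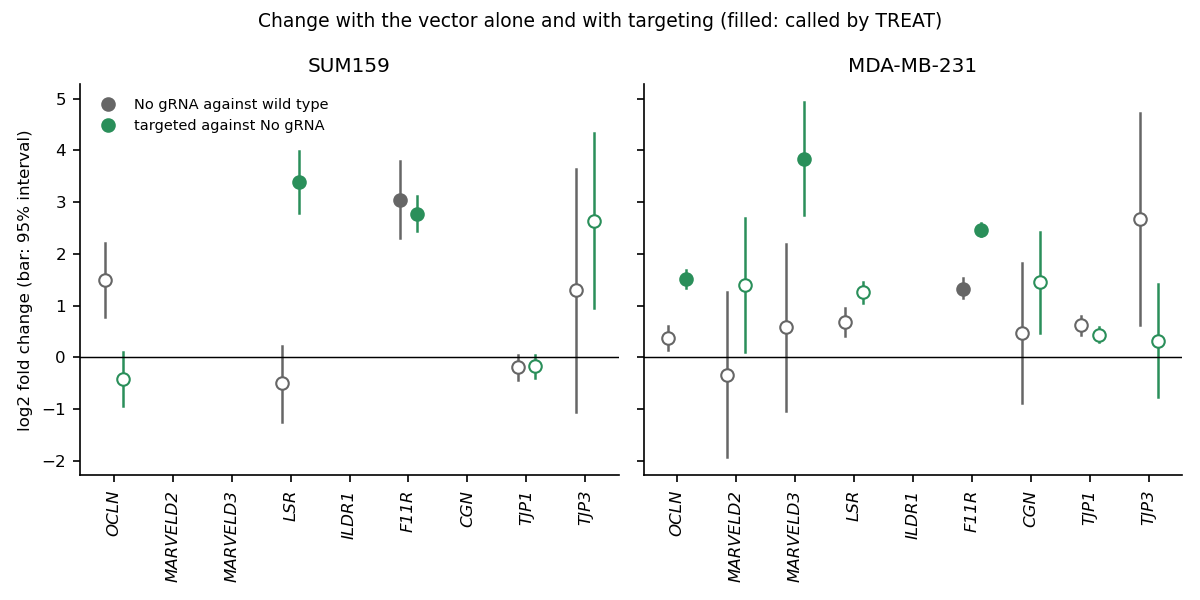
Log2 fold change of the 9 genes, with 95% intervals, for No gRNA against wild type (grey) and for both targeted groups together against No gRNA (green), in each line, filled where called by TREAT. F11R is filled for both steps in both lines, and LSR in SUM159 for the targeting step alone. Nothing is drawn from the grey F11R call in SUM159, where only the transduced groups brought F11R past the filter on low counts. The grey F11R call in MDA-MB-231 was lost in 5 of 6 fits with a library left out. OCLN in SUM159 changes by 1.50 in No gRNA against wild type and by -0.42 with targeting.

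Set against wild type instead, the targeted groups gave larger F11R changes, which add the difference between No gRNA and wild type. In SUM159 the log2 fold changes were 5.81 (SE 0.316) with All gRNA and 5.84 (SE 0.316) with gRNA 4, and in MDA-MB-231 3.99 (SE 0.0791) in set 1 and 3.62 (SE 0.0800) in set 2. TREAT called F11R and LSR in SUM159 (2.30% and 2.46% of all genes) and F11R, LSR and OCLN in MDA-MB-231 (8.42% and 1.44%), where MARVELD3 was again left out. In SUM159 nothing is drawn from the F11R calls against wild type, since F11R passed the filter on low counts there only through the transduced groups. OCLN in SUM159 then turned to 1.30 (SE 0.329) with All gRNA and 0.88 (SE 0.345) with gRNA 4, opposite in sign to its values against No gRNA, and TREAT called neither. TJP3 averaged 0.674 CPM with All gRNA and 0.622 with gRNA 4, at least 4.61-fold and 4.25-fold above the floor of 3 counts that SUM159 wild type of run 1 did not pass in any library. These TJP3 means rest on no more than 19 counts in any library. Only targeted libraries brought TJP3 past the filter on low counts in SUM159, so that nothing is drawn from these folds.

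The wild type lines started from different levels. Within run 2, F11R, CGN and LSR were lower in SUM159 than in MDA-MB-231, by TREAT, and these were 3 of the 5 members tested, against 29.1% of all 15110 genes. F11R and CGN passed the filter on low counts only through MDA-MB-231, so that their share is no support for a difference. F11R stood at 0.225, 1.09 and 0.113 CPM in SUM159 and averaged 24.2 CPM in MDA-MB-231, a log2 fold change of -6.14 (SE 0.553), which became -6.97 without SUM159 replicate 2 and -5.50 without replicate 3. CGN had at most 1 count in a SUM159 library and averaged 3.56 CPM in MDA-MB-231. LSR stood at 1.64, 4.48 and 2.13 CPM and at 40.6, 26.5 and 35.9 CPM, a log2 fold change of -3.75 (SE 0.401, adjusted p = 0.000777). By the moderated test, which called 75.5% of all genes, OCLN was also lower (-1.50, SE 0.286) and TJP1 higher (0.56, SE 0.0759) in SUM159.

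SUM159 wild type libraries of the 2 runs differed from each other, and run and culture cannot be told apart in them. OCLN was higher in run 2 than in run 1 by 1.78 (SE 0.443) on the log2 scale, LSR lower by a log2 fold change of -1.65 (SE 0.345) and TJP1 by -0.27 (SE 0.0852). These 3 of the 4 genes tested passed limma's moderated test, which called 62.1% of all genes, and none passed TREAT, which called 6.65%. F11R differed by -0.74 (95% interval -2.53 to 1.04). A shift of OCLN or LSR between groups of different runs can thus be as large as 1.78 and 1.65 without any transduction, whereas each targeted group was compared with its No gRNA within 1 run.

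The genes with patterns most like those of the members were ranked by Pearson correlation of log2 CPM over 24 libraries, each centred on its line, among 13775 genes tested in both lines. Only 5 members could be ranked. F11R was closest to DSP, a desmosomal plaque protein (r = 0.97), CDH3, which encodes P-cadherin (0.96), and SPINT1, a membrane-bound protease inhibitor (0.96). LSR was closest to PLAUR, the urokinase receptor (0.94), SPINT1 (0.93) and DNAAF3 (0.92). OCLN was closest to CXCL16 (0.90), PAQR7 (0.89) and S1PR2 (0.89), TJP1 to CDV3 (0.93), KLF3 (0.93) and LNCOG (0.92), and TJP3 to KIAA1217 (0.88), FAM131C (0.88) and GSN, an actin-severing protein (0.87). The 24 libraries share 8 groups, and these correlations describe them only.

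Other genes of the tight junction were taken from 4 lists. The first holds 7 further membrane proteins, which are BVES and members of the JAM, CTX and angulin families, among them CXADR and JAM3. TREAT called none of the 4 tested in SUM159 or of the 5 tested in MDA-MB-231, and the medians of the log2 fold change were 0.27 (All gRNA), 0.28 (gRNA 4), 0.57 (set 1) and 0.54 (set 2). At an unadjusted p under 0.05 TREAT found 0, 1, 1 and 1 of them, and the moderated test called 2, 1, 5 (2 of them lower) and 2, beside its 10.8%, 11.0%, 37.8% and 52.4% of all genes. CXADR, an adhesion protein and virus receptor, named after its values were seen, passed the moderated test each time, at 1.71 (adjusted p = 0.0242), 2.09 (0.00711), 1.94 (0.00153) and 2.13 (0.000421) on the log2 scale. It averaged 7.80 CPM in SUM159 No gRNA, 26.6 with All gRNA and 34.8 with gRNA 4, and 9.92 CPM in MDA-MB-231 No gRNA, 37.9 in set 1 and 43.0 in set 2. The second holds 17 plaque and polarity proteins, with medians of -0.02, -0.10, -0.02 and 0.06 in the same order. TREAT called none of its 14 tested genes in SUM159, 1 of 17 in set 1 and 2 of 17 in set 2, all higher, beside 1.47% and 4.14% of all genes in these sets. CRB3, described below, is the gene called in set 1 and 1 of the 2 called in set 2. It passed the filter on low counts only through the targeted sets, so that nothing is drawn from these counts. The moderated test called 4, 3, 5 and 7, of which 1 was lower each time, with CRB3 among those in both sets. The third holds 15 signalling and trafficking proteins, 14 of them tested in each line, with medians of -0.06, -0.09, 0.08 and -0.10 and no TREAT call, even at an unadjusted p under 0.05, where the moderated test called 1, 4, 8 and 6, of which 1, 3, 3 and 4 were lower. The fourth holds 23 claudins, of which 4 were tested in SUM159 and 9 in MDA-MB-231, with medians of 0.40, 0.28, 0.40 and -0.23. TREAT called 1 claudin, lower in set 2, where it called 4.14% of all genes. The moderated test called 2, 2, 5 and 6 claudins, of which 1, 1, 1 and 3 were lower. Over all genes tested the medians lay between -0.01 and 0.00.

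The gene of the second list called in both sets was CRB3, an apical polarity protein of the Crumbs complex. It averaged 0.237 CPM in MDA-MB-231 No gRNA, 19.0 CPM in set 1 and 9.62 CPM in set 2, with fitted log2 fold changes of 6.16 and 5.19. Its No gRNA mean was 4.26 counts, and it passed the filter on low counts only through the targeted sets, so that nothing is drawn from its calls. In SUM159 it did not exceed 0.244 CPM in any library and was not tested. The claudin was CLDN1, named after its values were seen. It averaged 147 CPM in No gRNA and 47.7 CPM in set 2, a log2 fold change of -1.62 (SE 0.0581, TREAT adjusted p = 2.28e-05), and 126 CPM in set 1, a change of -0.23. Its wild type mean was 28.7 CPM, so that set 2 lay above wild type, by 0.68 on the log2 scale (SE 0.0752), and No gRNA by 2.30 (SE 0.0654).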

How the data were processed

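RNA-seq reads of SUM159 and MDA-MB-231 were quantified by the authors with Salmon and summed to genes with tximport, who deposited gene-level estimated counts with a transcript length correction and without scaling between libraries (build GRCh38 in the submitters' processing notes). The Salmon version, annotation release and strandedness are not given in the sources used here. Conditions came from the labels, and 0 columns lacked a sample.

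Counts were fitted per line (12 libraries) with voom of limma 3.58.1 (R 4.3.3) after TMM scaling and filterByExpr of edgeR 4.0.16 at a minimum count of 10, with 1 mean per group. TREAT tested an absolute log2 fold change over 1, with Benjamini-Hochberg adjustment over all genes tested and a threshold of 0.05, and limma's moderated test was given beside it. Permutation tests (scipy) and correlations used log2 CPM with a prior count of 2. A group with at most 3 counts in every library was set to that floor. Gene positions and lengths are from GENCODE, and promoter sequences from RefSeq (GRCh38.p14). The steps were tested on simulated counts.

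The 9 genes and the lists were chosen with earlier results of these data known. Named genes are the 9, ZEB1, cell line markers, list genes called by TREAT in at least 2 of the 4 comparisons with No gRNA, and the 3 most similar genes per member, and CXADR and CLDN1 were named outside this rule, after their values were seen. Alternatives were edgeR's quasi-likelihood and glmTreat tests, DESeq2 1.42.0, other scalings and filters, other sets of libraries, wild type as control, a replicate block and each library left out. Leaving libraries out of the comparisons with wild type, between lines and of the interaction was added after seeing the data. One list gene called in set 2 is counted but not reported here by name.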

Additional observations from a re-analysis of the deposited data

Results flagged for a closer look

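The change with targeting differed between the lines, as MDA-MB-231 minus SUM159 on the log2 scale, for OCLN (1.91) and LSR (-2.15) by limma's TREAT test of the difference itself. MARVELD3 passed it too (4.29), but had too few counts in SUM159 to be tested there, and nothing is drawn from its value. For TJP1 (0.59) and for ZEB1 (1.10) limma's moderated test alone called the difference. Both lines' values stand in the report, and line and sequencing run cannot be told apart in these 24 libraries.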

How the results depend on the processing

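The count of members called in set 1 of MDA-MB-231 rose from 3 to 6 with the moderated test and with edgeR's quasi-likelihood test against 0, that in both sets together rose from 3 to 6 with the moderated test, and the other counts of members against No gRNA stayed within 1.5 times under every alternative run. Leaving out 1 library gave 0 to 1 members called for No gRNA against wild type in MDA-MB-231 and 0 to 3 for the interaction. With wild type as the control, OCLN turned to 1.30 (All gRNA) and 0.88 (gRNA 4) in SUM159 and TJP3 to 2.44 in set 2. With 1 library left out, TJP3 ranged from -0.83 to 0.43 in set 2 and from -0.29 to 0.98 over both sets. For No gRNA against wild type in MDA-MB-231, CGN ranged from -0.01 to 1.17, MARVELD3 from -0.02 to 1.12 and MARVELD2 from -1.08 to 0.41. The causes were not tested. In the counts given here MARVELD3 is included, whose set 1 call was lost in a fit of the 2 groups alone (adjusted p = 0.0669) and without No gRNA replicate 1 or 3, and its call over both sets without replicate 1.

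Over all genes, the calls with All gRNA, gRNA 4, set 1 and set 2 went from 60, 59, 231 and 651 to 1639, 1668, 5935 and 8235 with the moderated test, to 368, 403, 1124 and 2404 with its calls limited to changes over 1, to 1675, 1706, 5821 and 8161 with edgeR's test against 0, and to 349, 373, 1323 and 227 against wild type. With All gRNA, 39 genes were called from the 2 groups alone and 31 to 43 with 1 library left out. No gRNA against wild type in SUM159 went from 231 to between 147 and 180.

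With the replicate number as a block (replicate block), 2, 2, 3 and 4 members were called in the 4 comparisons, as without it, and 47, 54, 217 and 635 genes in all. Deviations of same-numbered libraries correlated between -0.05 and 0.05, so that the numbers do not pair the libraries.

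Prior counts of 0.5 and 5 kept every permutation result on its side of 0.05. With a prior count of 5, 1 of the 3 genes most like OCLN stayed. With exon union lengths, 70 of 81 places in the order of levels stayed. Upstream bases alone held either motif in 23.8% of promoters. At this depth MARVELD2, MARVELD3, ILDR1 and CGN could not be tested in SUM159.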
